A study of Mus musculus with 156 samples.

Results

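The core clock genes encode the transcription factors and repressors of the molecular circadian clock, and they were followed here in the mouse striatum after a single injection of a psychotropic drug. The 9 genes *Per1*, *Per2*, *Per3*, *Cry1*, *Cry2*, *Ciart*, *Arntl*, *Clock* and *Npas2* were taken by name, whatever their signal, with every probe that the array annotation assigns to them. This gave 19 of the 45279 probes tested, and 9 of the 19057 genes named on the array.

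All mice were C57Bl/6J males, whose age the labels give as 6 to 10 weeks and the methods as 8 to 10 weeks. They received 1 intraperitoneal dose of the antidepressants tranylcypromine, mianserin or bupropion (20 mg/kg each), of the antipsychotics haloperidol (1 mg/kg), risperidone (0.5 mg/kg) or clozapine (3 mg/kg), or of the anxiolytics buspirone and hydroxyzine (spelled Hydroxizine in the labels), at 10 mg/kg each, or diazepam, at 5 mg/kg. Controls were given saline or 1% Tween 80 or were left naive, and striatal RNA was collected at 1, 2, 4 or 8 h. Each group at a time had 3 Illumina MouseWG-6 arrays, and each array held the pooled RNA of 2 mice. The arrays of the first chip set (108 arrays on 18 chips) held the antidepressants, the antipsychotics, Tween 80, naive mice and saline replicates 1 to 3, and those of the second chip set (48 arrays on 8 chips) held the anxiolytics and saline replicates 4 to 6. A drug was set against same-time vehicle arrays from the chip set it was run in. In the first set these were the 6 saline and Tween 80 arrays together, and in the second set the 3 saline arrays, also for diazepam, which had been suspended in Tween 80. Values are log2 signals after quantile normalization, and a change is the difference between 2 mean log2 signals. A probe is called changed when its limma p-value, adjusted over all 45279 probes, passed a false discovery rate of 5%, either in the moderated F test over the 4 times or in the test of a single time. The labels do not give the hour of the day at which mice were injected or killed. In injected mice hours after injection and time of day therefore cannot be told apart. Naive mice had no injection.

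Array medians before normalization ran from 7.67 to 9.21 on the log2 scale in the first set, and from 6.92 to 8.63 in the other. Probes scattered more in the second set, where the median residual SD was 0.189 against 0.142 in the first. One chip of the second set stood apart. Its 6 arrays (diazepam 2 h replicate 1, diazepam 8 h replicate 3, buspirone 4 h replicate 2, hydroxyzine 2 h replicate 2, saline 1 h replicate 4 and saline 4 h replicate 6) had a median correlation of 0.953 to 0.967 with the other arrays of the set, against 0.973 to 0.986 for all others. Differences named for main probes of the second set are given with and without these arrays. Of the 8 measured markers of medium spiny neurons, the principal neurons of the striatum, all 8 lay above the median signal of all probes, with *Ppp1r1b* highest at 15.19. Markers of the choroid plexus, a tissue of the neighbouring ventricle, varied widely, with an average over the 5 genes between 8.61 and 11.46 across arrays.

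In the mammalian clock, Arntl (also called Bmal1) pairs with Clock, or in forebrain with Npas2, and the pair binds E-box sequences and switches on the *Per*, *Cry* and *Ciart* genes. The Per and Cry proteins then repress the pair that made them, and Ciart, also known as Chrono or Gm129, is a further repressor of the same pair. Nuclear receptors of the Rev-erb and Ror families close a second loop by acting on *Arntl* through another element. *Per1* is also known as an immediate early gene, since CREB and the glucocorticoid receptor can raise it soon after a stimulus.

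Promoter windows of *Per1*, *Ciart* and *Arntl* are shown for the elements through which these regulators are known to act. No promoter window of *Per2*, whose signal also moved, was available. Each window runs from 250 bases before to 50 bases after an annotated start in RefSeq (GRCm38.p6) and is written 5′ to 3′ on the strand of the gene. *Per1* has 2 annotated windows, at chr11:69098699-69098998 and chr11:69099902-69100201 on the plus strand, *Ciart* has 1 at chr3:95882179-95882478 on the minus strand, and the second of the *Arntl* windows lies at chr7:113207261-113207560 on the plus strand. Capitals mark matches on either strand to the E-box CACGTG, the E'-box CACGTT, the CRE TGACGTCA or its short form TGACG, the D-box TTATGTAA, the RORE core AGGTCA and the glucocorticoid element (AGAACA, 3 bases of any kind, then TGTTCT).
Per1 window 1: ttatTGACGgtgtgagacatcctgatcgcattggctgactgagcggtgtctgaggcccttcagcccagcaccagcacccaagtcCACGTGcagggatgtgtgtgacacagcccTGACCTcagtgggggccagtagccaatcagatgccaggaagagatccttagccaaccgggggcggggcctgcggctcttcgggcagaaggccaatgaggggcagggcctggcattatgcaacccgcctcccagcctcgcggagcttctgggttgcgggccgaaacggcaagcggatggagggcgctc
Per1 window 2: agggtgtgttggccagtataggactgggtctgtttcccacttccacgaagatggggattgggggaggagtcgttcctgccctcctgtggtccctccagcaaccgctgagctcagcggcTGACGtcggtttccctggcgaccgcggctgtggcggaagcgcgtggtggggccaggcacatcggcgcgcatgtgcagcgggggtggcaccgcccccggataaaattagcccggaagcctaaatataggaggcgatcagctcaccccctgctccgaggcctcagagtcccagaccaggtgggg
Ciart: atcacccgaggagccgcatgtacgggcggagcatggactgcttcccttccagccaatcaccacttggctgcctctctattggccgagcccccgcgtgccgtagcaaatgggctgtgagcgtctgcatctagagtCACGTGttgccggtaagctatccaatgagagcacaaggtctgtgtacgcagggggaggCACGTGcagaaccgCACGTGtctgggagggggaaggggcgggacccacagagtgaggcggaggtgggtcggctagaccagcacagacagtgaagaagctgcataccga
Arntl window 2: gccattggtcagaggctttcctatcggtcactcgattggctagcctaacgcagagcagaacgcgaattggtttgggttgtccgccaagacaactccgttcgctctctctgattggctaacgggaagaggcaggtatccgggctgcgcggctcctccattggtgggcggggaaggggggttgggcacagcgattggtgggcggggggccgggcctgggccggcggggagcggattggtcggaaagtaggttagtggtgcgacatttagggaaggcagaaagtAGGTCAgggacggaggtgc
The *Ciart* window held 3 E-boxes. An E-box was found in 7.15% of the 32851 promoter windows of this length in the table, and 3 or more in 0.0883% of them. The first *Per1* window held 1 E-box, 1 short CRE and 1 RORE core, and the second held a short CRE only. Short CREs, which include those inside a whole CRE, were found in 20.8% of all windows, whole CREs in 1.79% and RORE cores in 16.3%, the last of these also in the second *Arntl* window. Elsewhere among the members, *Cry1* held 1 E-box, 1 E'-box and 1 short CRE, *Cry2* 1 E'-box and 1 short CRE, and *Per3* 2 D-boxes, a number found in 0.0213% of windows. One of the 3 *Clock* windows held a RORE core, and the other *Clock* windows, the first *Arntl* window and that of *Npas2* held none of these motifs. The glucocorticoid element was in no window of a member, and in 3 of all windows. A match is a description of the sequence and not a measured binding site.

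The members differed widely in signal. The brightest probe of each gene stands for it below and is called its main probe. *Per1* (ILMN_2813484, mean log2 signal 11.80), *Clock* (ILMN_2610973, 11.72) and *Per2* (ILMN_2987862, 11.66) lay between percentiles 92.8 and 93.5 of all probes. *Cry2* (ILMN_2665681, 10.72), *Arntl* (ILMN_2707510, 10.63), *Ciart* (ILMN_3029489, 10.22) and *Npas2* (ILMN_2668835, 9.48) followed, then *Per3* (ILMN_1257393, 8.77). The one probe for *Cry1* (ILMN_2618668, 7.72) lay at percentile 7.11, and one *Clock* probe (ILMN_2589603, 7.69) at percentile 4.55, so little could be read from either. Signals of different probes are not levels of RNA and are not compared further. Probes of *Ciart* and the bright probes of *Per1* and *Per2* moved together. Over all arrays, after the mean of each chip was subtracted, the main *Ciart* probe correlated with the others at r = 0.90 and 0.84, the bright *Per2* probes at 0.79 and the bright *Per1* probes at 0.89. The main *Clock* probe did not run with its dimmer probes (r = 0.01 with ILMN_2600964, mean 8.64, and -0.04 with ILMN_2589603). The main *Per3* probe had r = 0.04 with its other probe, and that of *Cry2* 0.14. The third *Per1* probe (ILMN_1249997, designed on the cDNA AK081813, mean 8.03, percentile 49.7) was unlike the bright ones, with r = 0.05 to the main probe. The platform annotation names all of these probes *Per1*, and their place within the gene, which lies on chromosome 11 from 69095108 to 69109965, is not given in the sources used here.

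In mice of the first set that received no drug, *Arntl*, the activator, was lower at 8 h. The means of *Ciart*, the repressor, were higher at 8 h than at 1 h. This rise was called for some of its probes but not for its main probe. The main *Ciart* probe had an 8 h minus 1 h difference of 0.76 ± 0.21 in naive mice (SE, n = 3 each, adjusted p = 0.72, F test over the 4 times 0.82, limma) and of 0.42 ± 0.15 in vehicle mice of the first set (n = 6 each, adjusted p = 0.26, F test 0.13), where its values of 9.93 to 10.68 at 8 h overlapped those of 9.64 to 10.31 at 1 h. In naive mice the second *Ciart* probe (ILMN_3102736) measured 9.64, 9.60 and 9.62 at 1 h, 9.46, 9.96 and 9.74 at 2 h, 9.71, 9.61 and 10.03 at 4 h, and 10.53, 10.71 and 10.44 at 8 h. All 3 arrays at 8 h lay above all 9 earlier arrays. The 8 h minus 1 h difference was 0.94 ± 0.16 (SE, n = 3 each, adjusted p = 0.00051, limma, with 0.0155% of all probes called), and over the 4 times the adjusted p was 0.00036. In the 6 vehicle arrays of the first set the same probe ran from 9.54 to 9.95 at 1 h (median 9.62), 9.59 to 9.92 at 2 h (median 9.73), 9.43 to 9.90 at 4 h (median 9.59) and 10.20 to 10.53 at 8 h (median 10.36). The 8 h values again did not overlap the earlier ones. The difference from 1 h was 0.67 ± 0.11 (SE, n = 6 each, adjusted p = 0.00014, limma, with 0.289% of all probes called). The vehicle call held in every alternative tried. The naive call was lost without naive replicate 1 or 2 (adjusted p = 0.11 and 0.12) and with 1 spread for both chip sets. *Ciart* ILMN_1236079 passed the F test in vehicle mice as well (adjusted p = 0.017), with a difference of 0.35 ± 0.08, but not when any 1 vehicle replicate number was left out (adjusted p = 0.12 to 0.65).

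*Arntl* measured 11.02, 11.16 and 11.23 in naive mice at 1 h, 11.21, 10.92 and 11.16 at 2 h, 10.62, 11.04 and 10.69 at 4 h, and 10.51, 10.50 and 10.46 at 8 h. In vehicle mice of the first set it ran from 10.92 to 11.28 at 1 h (median 11.15), from 10.85 to 11.31 at 2 h (median 11.04), from 10.92 to 11.17 at 4 h (median 11.07) and from 10.41 to 10.87 at 8 h (median 10.51). The 8 h arrays thus lay below those of 1, 2 and 4 h in naive mice, and in vehicle mice they did so apart from the highest 8 h array (10.87), which lay above the lowest of 2 h (10.85). The 8 h minus 1 h difference was -0.64 ± 0.13 in naive mice (SE, adjusted p = 0.035, limma) and -0.55 ± 0.09 in vehicle mice (adjusted p = 0.00019). The naive call was lost when any 1 replicate number was left out (adjusted p = 0.12 to 0.69). It was also lost with median scaling, with 1 spread for both chip sets and with chip as a fixed block. The vehicle call was lost without vehicle replicate 3 (-0.57, adjusted p = 0.071), with median scaling (-0.41, 0.099) and with 1 spread for both chip sets (0.7).

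*Per1* and *Per2* were also called over time in vehicle mice. The main *Per1* probe in vehicle mice ran from 11.70 to 12.43 at 1 h (median 11.90), 11.52 to 11.82 at 2 h (median 11.64), 11.19 to 11.51 at 4 h (median 11.41) and 11.72 to 11.82 at 8 h (median 11.75). Its 4 h minus 1 h difference was -0.57 ± 0.12 (SE, adjusted p = 0.025, F test over the 4 times 0.026, limma). The main *Per2* probe was lower by 8 h, with an 8 h minus 2 h difference of -0.48 ± 0.11 (adjusted p = 0.02, F test 0.0099). Both F calls were lost when any 1 of the 3 replicate numbers of the vehicle was left out (adjusted p = 0.11 to 0.56 for *Per1* and 0.11 to 0.39 for *Per2*), and with median scaling. Of the 19 member probes the F test over the 4 times called 2 in naive mice, where 0.0199% of all probes were called, and 5 in vehicle mice, where 0.583% were. *Per3*, *Cry1*, *Cry2*, *Clock* and *Npas2* were not called. No member was called between vehicle and naive mice or between Tween 80 and saline, where 0% of all probes were called. In these limma tests the unadjusted p was under 0.05 for 1 of the 19 probes between vehicle and naive mice (3.28% of all probes) and for 0 between Tween 80 and saline (5.06%). *Per1* at 1 h had the largest vehicle minus naive difference of a main probe, 0.40 ± 0.15 (SE, adjusted p = 1).

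The saline arrays of the second set gave no call for a member over the 4 times (0 of 19 probes by limma, 0.011% of all probes), and 8 of the 19 had an unadjusted p under 0.05 (8.64% of all probes). *Ciart* averaged 10.45 at 1 h, 9.90 at 2 h, 10.48 at 4 h and 10.83 at 8 h there, and the 8 h minus 1 h difference was 0.38 ± 0.20 (SE, n = 3 each, adjusted p = 0.63, limma). Without the chip that stood apart the means at 1 and 4 h were 10.39 and 10.38, and this difference was 0.44 (adjusted p = 1). *Arntl* had 8.63, 10.38 and 10.26 at 1 h and 10.30, 10.08 and 8.72 at 4 h, and both low values were on the chip that stood apart. Without that chip *Arntl* averaged 10.32 at 1 h, 10.74 at 2 h, 10.19 at 4 h and 9.75 at 8 h, with an 8 h minus 1 h difference of -0.57 (adjusted p = 1). With all arrays this difference was -0.0046 ± 0.42 (SE, adjusted p = 1, limma). The mean at 8 h was the lowest of the 4 times only without the chip, and no test called it.

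**Figure D1:**
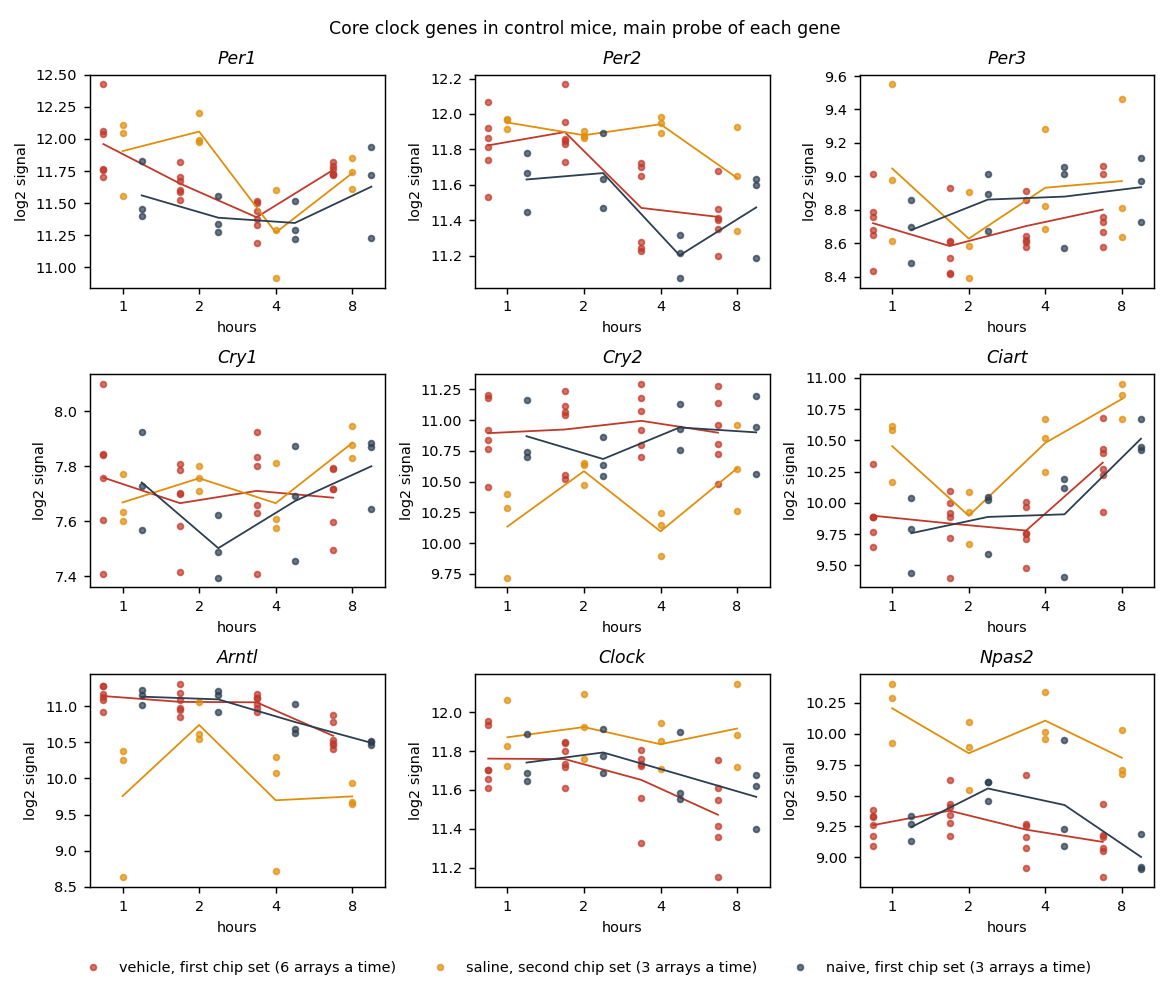
Log2 signal of the main probe of each core clock gene (vertical axes) against hours after injection, or the matched time in naive mice (horizontal axes). Points are arrays and lines join group means. *Ciart* has its highest mean and *Arntl* its lowest at 8 h in vehicle and naive mice of the first set, and the 2 lowest *Arntl* points of the second set, 8.63 and 8.72, come from the chip that stood apart.

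Over the 9 drugs, members were called by the F test over the 4 times after 4 of them. Mianserin had 7 of 19 member probes called (3.26% of all probes were called), tranylcypromine 3 (1.59%), risperidone 3 (1.22%) and haloperidol 2 (0.13%). No member was called after clozapine (0.0508% of all probes), bupropion (0%), diazepam (0.00221%), buspirone (0.00442%) or hydroxyzine (0%). The called probes belonged to *Per1*, *Per2* and *Ciart* only. In the drugs with no call, the unadjusted F test p was under 0.05 for 2 of the 19 member probes after bupropion (4.43% of all probes), 5 after clozapine (4.45%), 7 after diazepam (13.1%), 1 after buspirone (3.96%) and 1 after hydroxyzine (4.92%). In tests of single times, 24 changes passed in the first set and 1 among the anxiolytics. The times at which a member was called were 1, 2, 4 and 8 h after tranylcypromine (0.126%, 0.197%, 0.448% and 1.53% of all probes called), 2, 4 and 8 h after mianserin (0.479%, 1.31% and 1.34%), 2 and 4 h after risperidone (0.298% and 1.16%), 1 h after haloperidol (0.0398%) and 4 h after diazepam (0.00221%).

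**Figure D2:**
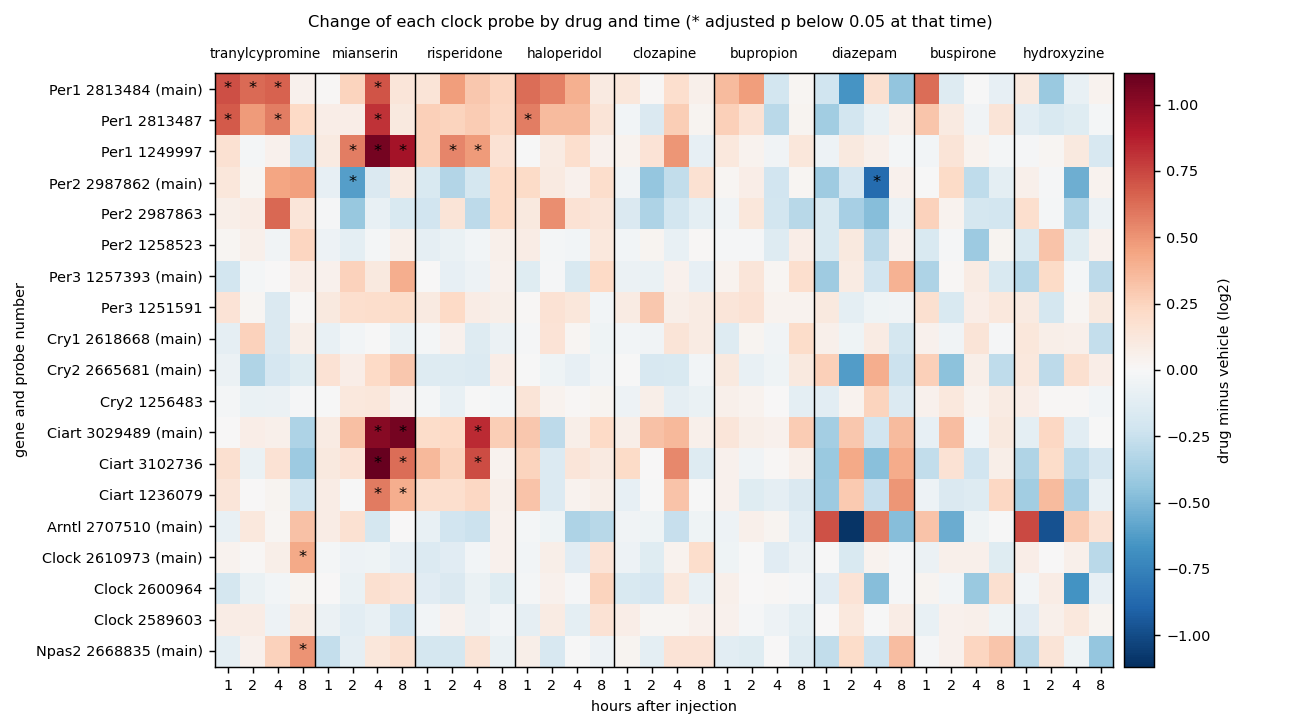
Change of every clock probe against vehicle (colour, drug minus vehicle in log2 signal), with probes in rows and the 9 drugs and 4 times in columns. Asterisks mark single times with an adjusted p below 0.05, and they lie in the *Per1*, *Per2*, *Ciart*, *Clock* and *Npas2* rows only, under tranylcypromine, mianserin, risperidone, haloperidol and, for *Per2*, diazepam.

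*Per1* was higher early after tranylcypromine, an inhibitor of monoamine oxidase, and after haloperidol, an antagonist of D2 dopamine receptors. At 1 h the main probe measured 12.67, 12.64 and 12.72 after tranylcypromine, against 11.70 to 12.43 in the 6 vehicle arrays (median 11.90). At 2 h it measured 12.47, 12.09 and 12.29, against 11.52 to 11.82 (median 11.64), and at 4 h 11.68, 12.34 and 12.13, against 11.19 to 11.51 (median 11.41). All 9 of these tranylcypromine arrays lay above the vehicle arrays of their time. The changes were 0.72 ± 0.15, 0.63 ± 0.15 and 0.66 ± 0.15 at 1, 2 and 4 h (SE, n = 3 against 6, adjusted p = 0.0043, 0.027 and 0.0066, limma), and 0.05 ± 0.15 at 8 h (adjusted p = 0.94). The F test over the 4 times gave an adjusted p of 3.2e-07. The second bright probe (ILMN_2813487) was called at 1 and 4 h, with changes of 0.68 ± 0.13 and 0.58 ± 0.13, and its change of 0.47 at 2 h was not called (adjusted p = 0.094). Its F test gave 1.2e-07. With chip as a fixed block both probes kept the F call, and the 1 h change of the main probe was 0.58 (adjusted p = 0.061). With median scaling the F test no longer called the main probe (adjusted p = 0.069). Leaving out any 1 replicate number of either group ended the call of at least 1 of the single times.

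After haloperidol the main *Per1* probe measured 12.264, 12.997 and 12.486 at 1 h, against 11.70 to 12.43 in vehicle arrays, and 12.49, 12.20 and 11.94 at 2 h, against 11.52 to 11.82. The groups overlapped at 1 h and did not at 2 h. The changes were 0.62 ± 0.15 at 1 h and 0.56 ± 0.15 at 2 h (SE, n = 3 against 6, adjusted p = 0.098 and 0.18, limma), and the F test passed for the main probe (adjusted p = 0.0013) and for ILMN_2813487 (0.0034). Only ILMN_2813487 was called at 1 h, with 0.58 ± 0.13 (adjusted p = 0.037), where 0.0398% of all probes were called. That call was lost in 8 alternatives, among them median scaling (adjusted p = 0.43), chip as a fixed block (0.27) and without haloperidol replicate 3 (0.25). Neither F call held against the Tween 80 arrays alone, the vehicle in which haloperidol was suspended, nor without haloperidol replicate 2 or vehicle replicate 2, and that of ILMN_2813487 was also lost without vehicle replicate 1 (adjusted p = 0.085). Without haloperidol replicate 2 the 1 h changes were 0.41 and 0.46 (F test adjusted p = 0.32 and 0.33), and without vehicle replicate 2 0.59 and 0.55 (0.063 and 0.089). Clozapine and risperidone, the other antipsychotics, gave differences of at most 0.47 at the main probe (risperidone, 2 h), and neither F test called it.

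After mianserin, a tetracyclic antidepressant that blocks several serotonin, adrenergic and histamine receptors, *Per1* was higher at a later time. The main probe measured 11.98, 12.13 and 12.15 at 4 h, against 11.19 to 11.51 in vehicle arrays, and the groups did not overlap. The change was 0.70 ± 0.15 at 4 h (SE, n = 3 against 6, adjusted p = 0.0014, limma) and 0.01, 0.25 and 0.13 at 1, 2 and 8 h. The F call of this probe (adjusted p = 0.0059) was lost with median scaling, without mianserin replicate 2 (adjusted p = 0.086) and without vehicle replicate 2 (0.081). For ILMN_2813487 the change was 0.80 ± 0.13 at 4 h (adjusted p = 5.5e-06), and it differed between the times (adjusted p = 0.029 for the interaction with time, which was called for 4 member probes and 0.479% of all probes). No member was called by this limma test after tranylcypromine (0.395% of all probes), risperidone (0.203%), haloperidol (0.0177%), clozapine (0.00221%), bupropion or an anxiolytic (0% each), with an unadjusted p under 0.05 for 5 of the 19 probes after tranylcypromine (9.24% of all probes), 2 after risperidone (6.58%), 1 after haloperidol (7.22%), 4 after clozapine (4.07%), 2 after bupropion (2.5%), 7 after diazepam (16.6%), 1 after buspirone (4.36%) and 2 after hydroxyzine (5.91%). With chip as a fixed block 0 clock probes were called by this test after any drug of the first set.

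The AK081813 probe of *Per1* was called after mianserin, like the bright probes, and after risperidone, where they were not called. After mianserin it measured 8.45, 8.48 and 8.45 at 2 h, against 7.61 to 8.10 in vehicle arrays (median 7.91). At 4 h it measured 8.95, 8.97 and 9.07, against 7.85 to 8.04 (median 7.93), and at 8 h 9.70, 8.58 and 8.77, against 8.02 to 8.23 (median 8.05). Every mianserin array of these times lay above every vehicle array. The changes were 0.58 ± 0.12, 1.07 ± 0.12 and 0.93 ± 0.12 at 2, 4 and 8 h (SE, n = 3 against 6, adjusted p = 0.0023, 8.6e-11 and 8.6e-09, limma), with 0.10 ± 0.12 at 1 h. The 8 h change was 0.59 without mianserin replicate 1, the highest array (adjusted p = 0.0012). This was the smallest F test p of any member in any drug (adjusted p = 2.1e-16), and every alternative that kept the probe kept the call. The change differed between times (adjusted p = 0.00035), a call lost with chip as a fixed block.

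After risperidone the AK081813 probe measured 8.70, 8.31 and 8.29 at 2 h, against 7.61 to 8.10, and 8.65, 8.22 and 8.34 at 4 h, against 7.85 to 8.04. The groups were again apart, with changes of 0.55 ± 0.12 and 0.48 ± 0.12 (SE, adjusted p = 0.0068 and 0.013, limma, F test 5.4e-05). On the only chip that held a risperidone and a vehicle array of 2 h, the difference was 0.61. This sets 1 array against 1, and the risperidone array is replicate 1, the highest at that time. Against the Tween 80 arrays alone, or without risperidone replicate 1, neither single time was called, while the F call held. The changes without risperidone replicate 1 were 0.41 at 2 h and 0.35 at 4 h (adjusted p = 0.16 and 0.22). The same probe differed from vehicle by 0.17, -0.03, 0.05 and -0.24 over the 4 times after tranylcypromine (F test adjusted p = 0.67) and by at most 0.19 after haloperidol (F test adjusted p = 1). After clozapine it differed from vehicle by 0.50 at 4 h (adjusted p = 0.1). The difference between tranylcypromine and mianserin was tested directly for this probe, and was -1.02 ± 0.13 at 4 h and -1.17 ± 0.13 at 8 h (tranylcypromine minus mianserin, adjusted p = 8.5e-08 and 9.3e-10, limma).

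**Figure D3:**
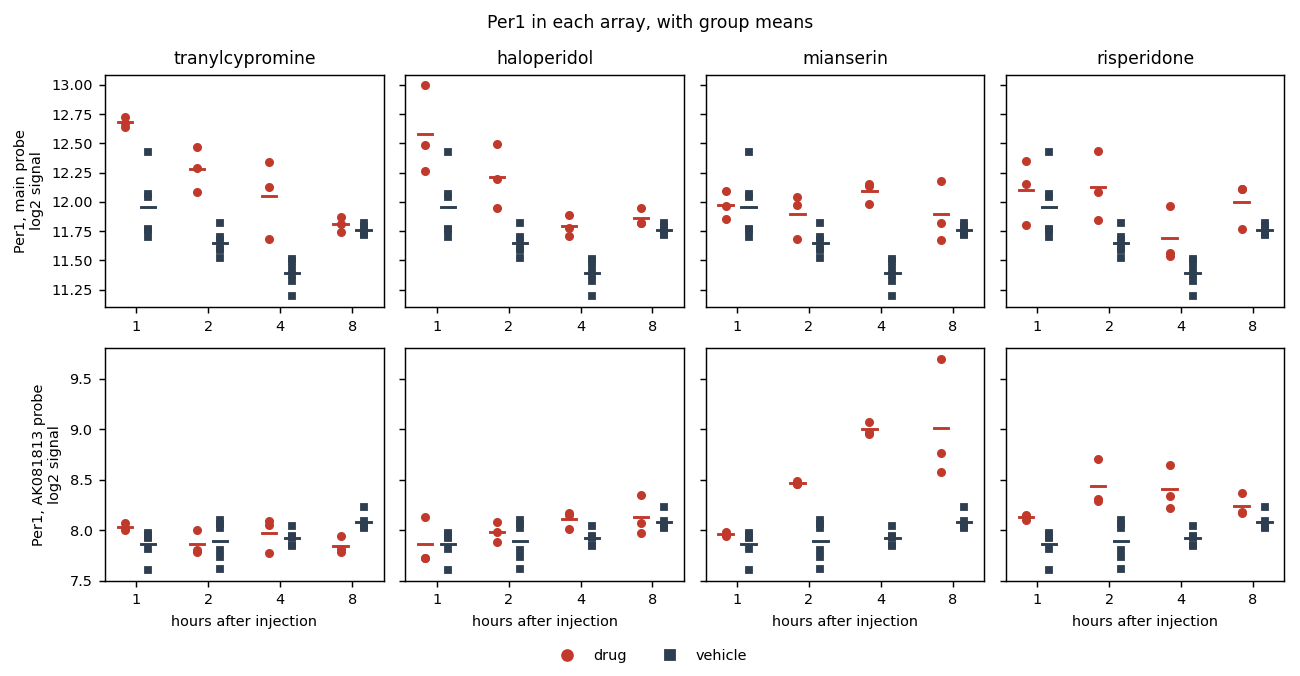
Log2 signal of 2 *Per1* probes (rows) in each array by hours after injection, for 4 drugs (columns). Circles are drug arrays, squares the 6 vehicle arrays of the first chip set, and bars the group means. The main probe is above vehicle at 1, 2 and 4 h after tranylcypromine and at 4 h after mianserin, and the AK081813 probe is above vehicle at 2, 4 and 8 h after mianserin and at 2 and 4 h after risperidone.

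*Ciart*, which represses Clock and Arntl, had the largest called change of any member. At 4 h after mianserin its main probe measured 10.93, 11.07 and 10.38, against 9.48 to 10.01 in vehicle arrays (median 9.75), and at 8 h 11.779, 10.998 and 11.400, against 9.93 to 10.68 (median 10.33). No mianserin array fell within the vehicle range at either time. The changes were 1.02 ± 0.18 and 1.07 ± 0.18 (SE, n = 3 against 6, adjusted p = 0.00014 and 7.2e-05, limma), beside 0.09 at 1 h and 0.34 at 2 h. The other probes changed by 1.12 ± 0.13 (ILMN_3102736) and 0.58 ± 0.10 (ILMN_1236079) at 4 h and by 0.62 ± 0.13 and 0.40 ± 0.10 at 8 h. All 3 were called at both times. At 8 h the calls of the other probes were lost without mianserin replicate 1 (0.44 and 0.22, adjusted p = 0.21 and 0.45), with chip as a fixed block (0.50 and 0.41, adjusted p = 0.089 and 0.08), with median scaling (0.52 and 0.34, adjusted p = 0.28 and 0.42) and with the vehicle arrays of both chip sets (0.37 and 0.20, adjusted p = 0.38 and 0.66). The F test gave adjusted p-values of 1.3e-07, 4.4e-10 and 8.6e-06, and the first 2 of these calls held in every alternative tried, that of ILMN_1236079 in all but the one that pooled the vehicle arrays of both chip sets. The change differed between times for ILMN_3102736 (adjusted p = 0.0014) and ILMN_1236079 (0.043), and missed for the main probe (0.053). Neither call held with chip as a fixed block.

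After risperidone *Ciart* was higher at 4 h. The main probe measured 10.58, 10.91 and 10.34, against 9.48 to 10.01 in vehicle arrays, and ILMN_3102736 measured 10.29, 10.38 and 10.37, against 9.43 to 9.90. Both groups of values were apart. The changes were 0.83 ± 0.18 and 0.73 ± 0.13 (SE, adjusted p = 0.0046 and 0.00028, limma), and at 8 h they were 0.28 and 0.04. The F call of the main probe (adjusted p = 0.019) was lost against Tween 80 alone, with median scaling, with the vehicle arrays of both chip sets, and without risperidone replicate 1 or 2 or vehicle replicate 1 or 3 (adjusted p = 0.072 to 0.34). ILMN_3102736 was not called at 4 h with median scaling (0.57, adjusted p = 0.15) or with the vehicle arrays of both chip sets (0.35, adjusted p = 0.33). ILMN_1236079 was not called after risperidone. With chip as a fixed block the 4 h changes were 0.72 and 0.67 (adjusted p = 0.009 and 0.0034).

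Tranylcypromine, which raised *Per1*, left *Ciart* without a call (-0.34 at 8 h for the main probe). The direct difference was -0.96 ± 0.21 at 4 h and -1.42 ± 0.21 at 8 h for tranylcypromine minus mianserin (SE, n = 3 each, adjusted p = 0.0054 and 2.5e-06, limma). Mianserin and risperidone were not called different from each other for any *Ciart* or bright *Per1* probe, and only the AK081813 probe differed, by 0.77 ± 0.13 at 8 h (mianserin minus risperidone, adjusted p = 0.00028).

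**Figure D4:**
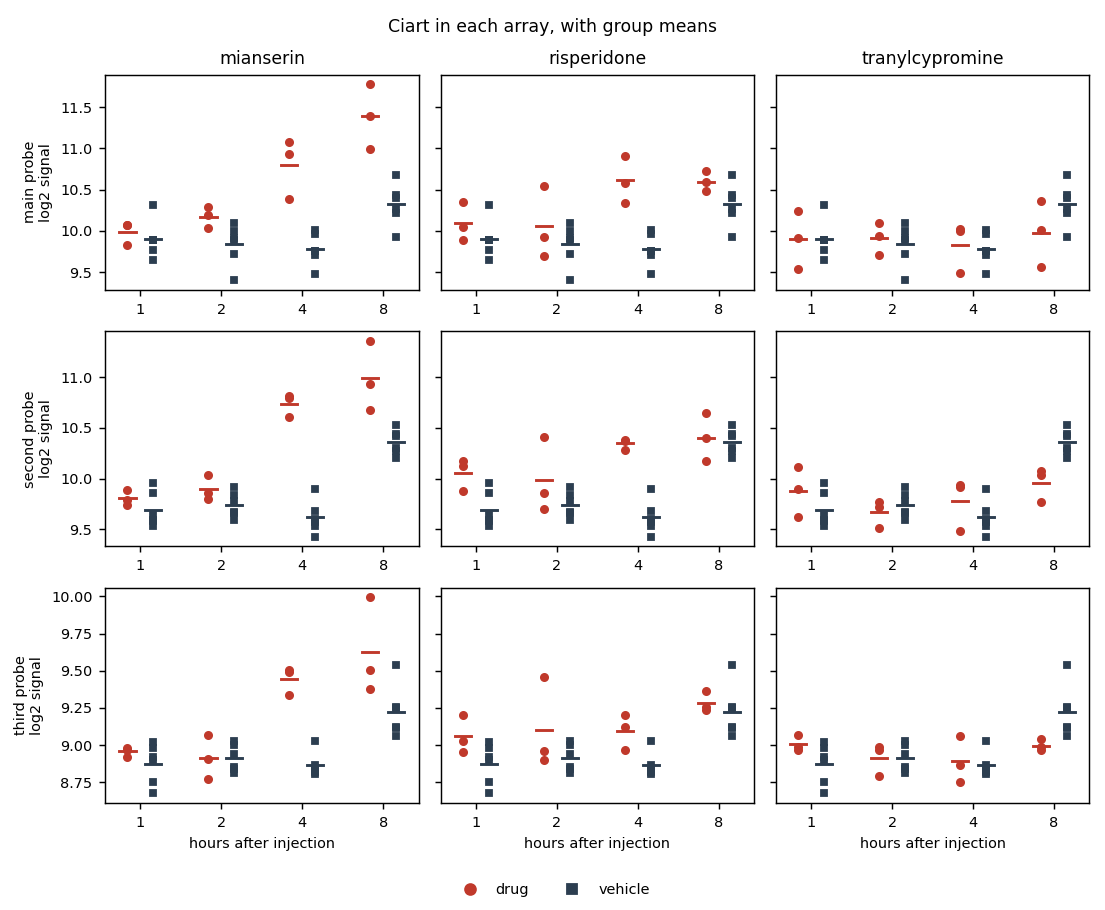
Log2 signal of the 3 *Ciart* probes (rows) in each array by hours after injection of mianserin, risperidone or tranylcypromine (columns). Circles are drug arrays, squares vehicle arrays of the first chip set, bars group means. The drug arrays are above vehicle for all probes at 4 h after mianserin and for the upper 2 probes at 4 h after risperidone. The vehicle arrays themselves are higher at 8 h than before for the lower 2 probes, and overlap earlier times for the main probe.

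By its main probe, *Per2*, a partner of Per1 in the repressor complex, was higher after tranylcypromine and lower after mianserin. After tranylcypromine the main probe measured 11.81, 12.08 and 11.82 at 4 h, against 11.22 to 11.72 in vehicle arrays (median 11.46), and 11.63, 11.98 and 12.01 at 8 h, against 11.20 to 11.68 (median 11.41). The groups were apart at 4 h and overlapped at 8 h. The changes were 0.44 ± 0.14 and 0.45 ± 0.14 (SE, n = 3 against 6, adjusted p = 0.2 and 0.061, limma), and the F test over the 4 times passed (adjusted p = 0.03), though not with median scaling (0.18 at 8 h, F test adjusted p = 0.91), with the vehicle arrays of both chip sets (0.083), or without tranylcypromine replicate 2 or 3 or vehicle replicate 1 or 2 (0.12 to 0.43). The second probe (ILMN_2987863) differed by 0.64 at 4 h and was not called (F test adjusted p = 0.23, and 0.023 with chip as a fixed block). After mianserin the main probe measured 11.31, 11.43 and 11.11 at 2 h, against 11.73 to 12.17 (median 11.85), and no values overlapped. The change was -0.61 ± 0.14 (adjusted p = 0.0084, F test 0.017). It was -0.47 with chip as a fixed block (adjusted p = 0.11), and the F call was also lost against saline alone, with median scaling and without mianserin replicate 1 or 3 or vehicle replicate 1 or 2 (adjusted p = 0.053 to 0.15). The second probe was not called after mianserin, by the F test or at a single time. Between the 2 drugs the difference of the main probe was 0.64 ± 0.16 at 2 h and 0.60 ± 0.16 at 4 h (tranylcypromine minus mianserin, adjusted p = 0.049 and 0.033, limma).

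In the second chip set a single member was called at a single time. *Per2* measured 11.02, 11.11 and 11.11 at 4 h after diazepam, an agonist at the benzodiazepine site of GABA-A receptors, against 11.89, 11.98 and 11.95 after saline. The arrays were far apart, with a change of -0.86 ± 0.15 (SE, n = 3 each, adjusted p = 0.038, limma), and it was the only probe of the array called at that time (0.00221% of all probes). The F test over the 4 times did not pass (adjusted p = 0.11). The single time call was lost when any 1 diazepam or saline replicate number was left out (-0.83 to -0.88, adjusted p = 0.13 to 0.4). Without the chip that stood apart the change was -0.86, with 2 saline arrays left and an adjusted p of 0.1, and with chip as a fixed block it was -0.68 (adjusted p = 0.25, F test 0.0075). The second *Per2* probe measured 10.518, 10.943 and 10.996 after diazepam, against 11.34, 11.21 and 11.33 after saline, and was not called. After hydroxyzine the main probe differed from saline by -0.55 at 4 h with and without that chip, and was not called (adjusted p = 0.62 and 0.97).

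**Figure D5:**
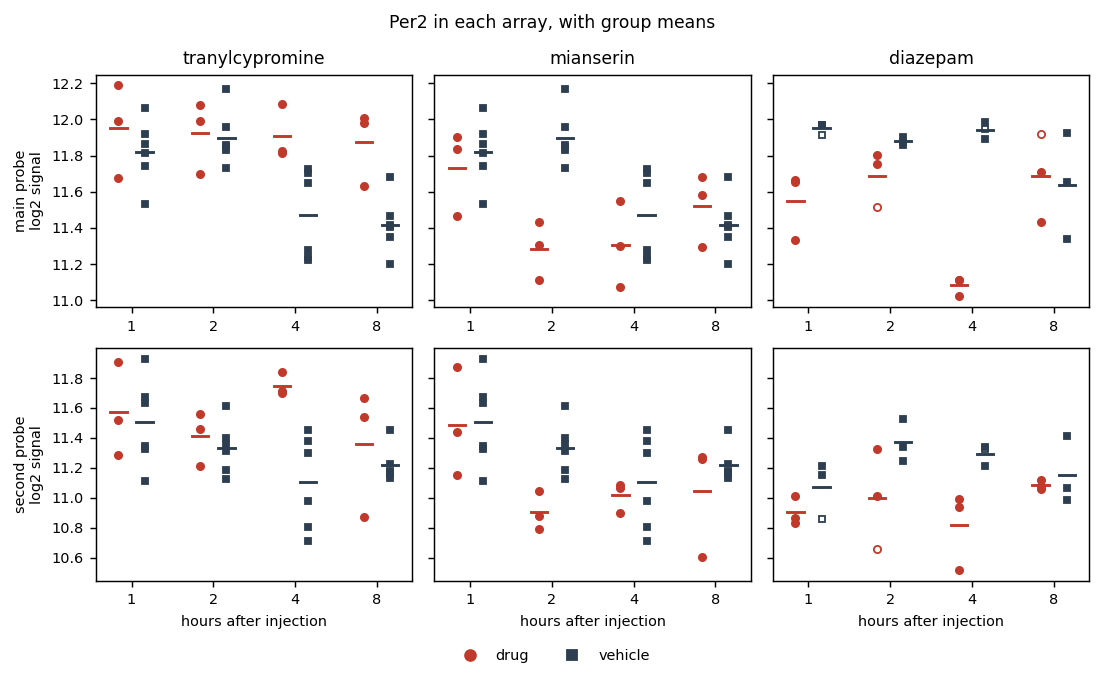
Log2 signal of the 2 bright *Per2* probes (rows) in each array by hours after injection of tranylcypromine, mianserin or diazepam (columns). Circles are drug arrays, squares vehicle arrays of the same chip set, bars group means, and open symbols arrays of the chip that stood apart. The main probe is above vehicle at 4 h after tranylcypromine, below it at 2 h after mianserin and below it at 4 h after diazepam.

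The activators gave few calls. *Clock*, the partner of Arntl, measured 11.78, 12.07 and 11.85 at 8 h after tranylcypromine, against 11.15 to 11.75 in vehicle arrays (median 11.48), a change of 0.43 ± 0.11 (SE, adjusted p = 0.017, limma). *Npas2*, which takes the place of Clock in forebrain, measured 9.90, 9.64 and 9.34, against 8.84 to 9.43 (median 9.12), a change of 0.50 ± 0.14 (adjusted p = 0.033). At this time 1.53% of all probes were called, and neither gene passed the F test over the 4 times (adjusted p = 0.15 and 0.11). The dimmer *Clock* probes were not called at 8 h after tranylcypromine. The *Npas2* call was lost in 10 of 17 alternatives, among them chip as a fixed block (0.27, adjusted p = 0.65), and the *Clock* call in 4, with median scaling (0.14, adjusted p = 0.79), with the vehicle arrays of both chip sets (0.28, adjusted p = 0.39), and without tranylcypromine replicate 2 (0.34, adjusted p = 0.25) or vehicle replicate 1 (0.32, adjusted p = 0.19). *Arntl* was not called against vehicle after any drug, with changes between -0.35 (haloperidol, 4 h) and 0.33 (tranylcypromine, 8 h) in the first set. Between drugs it was, since *Arntl* measured 10.99, 10.88 and 10.88 at 8 h after tranylcypromine and 10.44, 10.42 and 9.99 after haloperidol, a difference of 0.64 ± 0.13 (adjusted p = 0.0039).

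The *Arntl* differences of the second set were larger with the chip that stood apart than without it. At 2 h after diazepam it measured 8.65, 10.11 and 10.17, against 10.55, 10.62 and 11.05 after saline, and after hydroxyzine 10.17, 8.95 and 10.18. The lowest value of each drug came from that chip. The changes of -1.10 ± 0.42 and -0.98 ± 0.42 (SE, not called) were -0.60 ± 0.26 and -0.57 ± 0.26 without it, and buspirone, with no array of that chip at 2 h, gave -0.56 ± 0.42 (not called). At 1 h the changes of 0.71 after diazepam and 0.74 after hydroxyzine were 0.15 and 0.17 without it.

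*Per3* and the cryptochromes were not called against vehicle after any drug, or over time in undrugged mice, by any probe. In the first set their main probes differed from vehicle by -0.20 to 0.40 (*Per3*, highest at 8 h after mianserin), -0.16 to 0.26 (*Cry1*) and -0.34 to 0.30 (*Cry2*). Their SE was 0.14 for *Per3*, 0.11 for *Cry1* and 0.16 for *Cry2*. The SE is not the limit of a call, since the *Per3* difference of 0.40 was itself not called. Changes larger than the SE could therefore be missed at this spread. One *Per3* probe (ILMN_1251591, mean 8.04) differed between 2 drugs, by -0.36 ± 0.10 at 4 h for tranylcypromine minus mianserin (adjusted p = 0.049). In the second set *Cry2* ranged from -0.62 (diazepam, 2 h) to 0.41 (diazepam, 4 h), with an SE of 0.23 and no call, and from -0.50 to 0.43 without the chip that stood apart, after the same drug and times.

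Drugs of one set were also compared with each other over the 4 times, 15 pairs in the first set and 3 among the anxiolytics. Among drugs of the first set 42 of these probe by pair tests were called (0.677% over all probes and pairs), and among the anxiolytic pairs 0 (0.00515%, by limma). The unadjusted p was under 0.05 for 4 of 19 probes between diazepam and buspirone (5.36% of all probes), 3 between diazepam and hydroxyzine (4.19%) and 2 between buspirone and hydroxyzine (3.77%). Tranylcypromine and mianserin differed at 9 of 19 probes (2.42% of all probes), the largest count of any pair, and mianserin and haloperidol at 7 (1.2%). Against bupropion, mianserin differed at 6 (1.55%) and tranylcypromine at 3 (0.939%). The bright *Per1* probe was lower by 0.87 ± 0.17 in the difference of bupropion minus tranylcypromine and by 0.91 ± 0.17 in that of bupropion minus mianserin, both at 4 h (n = 3 each, adjusted p = 0.0011 and 0.00033, limma).

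In a model of drug, time and their interaction over all arrays, 7 member probes had an effect of drug (2.2% of all probes), 11 an effect of time (2.36%) and 3 an interaction (0.261%). The effect of drug was called for the 3 *Per1* probes (main probe adjusted p = 3.1e-12), the 2 bright *Per2* probes (main probe 8e-08) and 2 of the 3 *Ciart* probes (main probe 3.3e-06), and the interaction for the *Per1* probes only (main probe 0.0048, AK081813 probe 1.4e-05). *Ciart* and *Arntl* had adjusted p-values of 2.5e-17 and 2e-07 for time. *Per3* (0.0034) and *Clock* (0.037) were called for time as well, each by its main probe.

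Of 29 other genes of the clock loop listed (regulators of *Arntl*, kinases and ubiquitin ligases of the Per and Cry proteins, and output factors) 25 were measured. Tranylcypromine raised 2 of them (1.21% of all probes were called higher), *Bhlhe40*, a repressor at E-boxes (0.79 at 1 h, adjusted p = 1e-07 over the 4 times, limma), and *Rorb*, an activator through the RORE (0.59 at 8 h, adjusted p = 0.002, and 0.20 without tranylcypromine replicate 2, adjusted p = 0.19). Mianserin raised 1 (1.71% of all probes), *Fbxl21*, whose product binds cryptochromes (0.36 at 2 h, adjusted p = 0.039), a call lost in 10 of 17 alternatives. The *Bhlhe40* call was lost with 1 spread for both chip sets (F test adjusted p = 0.24). The *Rorb* call was lost in 3 of 17 alternatives, with median scaling and without tranylcypromine replicate 2 or vehicle replicate 3. None of the 25 was called after risperidone, haloperidol or the other drugs. Medians of the 25 changes lay between -0.09 and 0.03 after tranylcypromine and between 0.015 and 0.11 after mianserin, against medians over all probes between -0.0066 and 0.0036. Over time in vehicle mice 4 of the 25 were called, all higher at 8 h than at 1 h, where 0.583% of all probes were called in either direction. These were *Dbp*, an output factor that binds D-boxes (0.74, adjusted p = 0.00045), *Usp2*, a deubiquitinase (0.43, 0.011), and the Rev-erb genes *Nr1d1* (0.58, 0.035) and *Nr1d2* (0.68, 0.037), which repress *Arntl*. The *Dbp* call was lost without vehicle replicate 1 (0.69, adjusted p = 0.083), and the other calls when any 1 vehicle replicate number was left out.

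Lists of genes known to respond to the stimuli that raise *Per1* were read in the same arrays, and calls are by the F test over the 4 times. Of 12 CREB and activity-induced genes, 11 were higher after tranylcypromine and 8 after haloperidol, and 3 were higher and 4 lower after mianserin, 4 higher and 2 lower after risperidone. Of all probes, 1.21% were called higher and 0.373% lower after tranylcypromine, 1.71% and 1.55% after mianserin, 0.758% and 0.466% after risperidone, 0.106% and 0.0243% after haloperidol and 0.042% and 0.00883% after clozapine. Their average over the list was 11.28 to 11.58 at 1 h after tranylcypromine and 11.05 to 11.46 after haloperidol, against 10.33 to 10.62 in vehicle arrays. Of 12 glucocorticoid targets, 11 were higher after mianserin, 9 after risperidone, 9 after tranylcypromine and 6 after clozapine, and none after haloperidol. Their average was 11.46 to 11.59 at 4 h after mianserin and 11.66 to 11.77 after risperidone, against 10.57 to 10.82 in vehicle arrays. The part of either group in the changes of *Per1* and *Ciart* was not tested. Markers of cell types were read in the same way. The median change of the 6 microglia markers was -0.32 at 8 h after tranylcypromine and -0.36 at 8 h after mianserin. Medians over all probes were 0.0035 and 0.0014 there. After tranylcypromine 1 of 6 astrocyte markers was higher, and 2 of 6 microglia and 1 of 6 endothelial markers were lower, and after mianserin 1 of 8 medium spiny neuron markers was higher (*Penk*) and 1 of 6 microglia markers lower (*P2ry12*). After risperidone 1 medium spiny neuron marker (*Gpr6*) and 1 endothelial marker (*Tek*) were lower. None of the 4 measured markers of cortical excitatory neurons was called after these drugs, though their median change was -0.70 at 1 h after tranylcypromine and -0.47 at 2 h after mianserin, and their average ran from 8.37 to 10.92 across arrays. It was 9.01 to 9.31 at 1 h after tranylcypromine, against 9.43 to 10.07 in saline and 9.49 to 10.10 in Tween 80 arrays, and 8.86 to 9.45 at 2 h after mianserin, against 9.11 to 9.55 in saline and 9.85 to 10.38 in Tween 80 arrays. Choroid plexus markers were not called after any of these drugs, and their average was 9.61 to 10.67 at 4 h after mianserin, against 9.28 to 9.93 in vehicle arrays. The part of any of these cell types in the changes of the clock genes was not tested. In whole tissue a change in RNA per cell and a change in the number of cells of a type cannot be told apart.

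The genes whose pattern over all arrays was most like that of a member differed between the members. With the mean of each chip subtracted, the main *Per1* probe was most like *Junb* (r = 0.81), *Dusp1* (0.77) and *Fos* (0.77), and *Per2* was most like *Egr2* (0.72), *Arc* (0.72) and *Dusp6* (0.71). *Ciart* was most like *Arrdc4* (0.76), *Nanos2* (0.74) and *Cirbp* (0.74), and *Arntl* most like *Egr1* (0.66), *Ppp2r1b* (0.66) and *Creld2* (0.66). *Clock* reached 0.59 with *Lrrk2*, *Npas2* 0.56 with *Ddit3*, *Per3* 0.50 with *Zfp46*, *Cry2* 0.46 with *Inafm1* and *Cry1* 0.33 with *Fryl*. Between members, *Ciart* and *Arntl* ran against each other (r = -0.65), *Per1* and *Per2* together (r = 0.62), and the AK081813 probe of *Per1* ran with *Ciart* (r = 0.615 with its main probe). Groups of drugs and times are shared by all of these values, and the arrays are not independent samples of one condition.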

How the data were processed

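Total RNA of the striatum, pooled from 2 mice per array, was hybridised to Illumina MouseWG-6 arrays. The authors deposited log2 probe signals that were not yet normalized, and a quantile normalized log2 table used as an alternative; per the methods, signals came from BeadStudio and the beadarray package, and whether background had been subtracted from the deposited table is not stated. All 156 arrays were quantile normalized together. The 9 members, the gene lists and the tests were chosen with earlier results of these data known. For each chip set a limma (version 3.58.1) model with 1 mean per drug and time was fitted, with an intensity trend, and p-values were adjusted over 45279 of 45281 probes (2 had missing values) by the Benjamini-Hochberg method at a false discovery rate of 5%. The F test pools the 4 times. The brightest probe stands for a gene. Pathway genes were named where the F test called them, at most 6 per comparison, and, of the 3 genes most correlated with each member, all are given for 4 members and the first for the others.

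Per the methods the replicates are biological, each a pool of its own, so p-values measure the spread between pools. Replicate numbers did not pair arrays (correlation of deviations -0.0064 for the same number, 0.0033 for others), while arrays of a chip deviated together (0.237 against -0.0142). No drug at any time had a same-time vehicle array on each of its chips, so chip was tried as a fixed and as a random block. In data simulated for mianserin, F tests recovered 95% of probes changed by 0.5 and 100% of those changed by 1, and for diazepam 63% and 94%. The precision of an array is limited by the number of arrays. Probe positions were not used here, and no promoter window of *Per2* was used. Motifs were searched on both strands, and a whole CRE also counts as a short one. The lists were CREB and activity-induced genes, glucocorticoid targets, clock pathway genes and markers of medium spiny neurons, cortical excitatory neurons, astrocytes, oligodendrocytes, microglia, endothelium and choroid plexus. Alternatives were median scaling, the deposited normalized table, normexp background correction, bright probes only, no trend, 1 spread for both sets, chip or replicate number as a block, other vehicles, and leaving out replicates. Leaving out the chip that stood apart was added after seeing the data.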

Additional observations from a re-analysis of the deposited data

Results flagged for a closer look

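Among the 6 vehicle arrays of the first set, 1 array stood far from the others in 5 of 76 tested combinations of a clock probe and a time, and chance flags about 1 in 20. At 8 h the AK081813 probe of *Per1* was 8.23 in Tween 80 replicate 3, against 8.02 to 8.09 in the others, and *Per2* ILMN_2987863 was 11.5 in the same array, against 11.1 to 11.2. *Ciart* ILMN_3029489 was 10.3 at 1 h in Tween 80 replicate 2, against 9.64 to 9.89, and *Ciart* ILMN_1236079 was 9.03 at 4 h in Tween 80 replicate 3, against 8.81 to 8.86. *Clock* ILMN_2589603, a probe near background, was 7.52 at 1 h in saline replicate 1, against 7.67 to 7.74.

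The change by mianserin differed between the times for 4 clock probes by the limma test of the interaction with time, where 0.479% of all probes were called. The adjusted p was 0.029 for *Per1* ILMN_2813487, 0.00035 for *Per1* ILMN_1249997, 0.0014 for *Ciart* ILMN_3102736 and 0.043 for *Ciart* ILMN_1236079. Mianserin minus vehicle was 0.08, 0.10, 0.11 and 0.08 at 1 h for these probes in this order, and 0.80, 1.07, 1.12 and 0.58 at 4 h. With chip as a fixed block 0 clock probes were called by this test.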

How the results depend on the processing

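Of 54 single probe results, none reversed in any of 855 alternative values and 176 of these values were no longer called. Median scaling alone lost 29 of the 54 calls. The deposited normalized table lost none, but it is also quantile normalized and correlated at 0.9999 with the values used here. The *Per1* AK081813 calls after mianserin, the main *Ciart* probe calls after mianserin and the *Ciart* ILMN_3102736 course in vehicle mice were kept throughout. With median scaling, clock probes called over the 4 times numbered 1 after tranylcypromine, 4 after mianserin, 1 after risperidone, 1 in naive and 3 in vehicle mice; single time calls were 13 in the first set and 0 among anxiolytics, calls that differ between times 1, between drugs 21, and interactions 1. With chip as a fixed block, they numbered 5 after tranylcypromine, 5 after risperidone, 1 after diazepam, 1 in naive and 2 in second set saline mice, with 0 single time calls in the second set, 0 that differ between times, 3 between drugs of the second set and 6 interactions. As a random block, chip gave 5 after risperidone, 1 after diazepam, 2 that differ between times and 1 between drugs of the second set. With 1 spread for both sets there were 6 after diazepam (14.7% of all probes), 1 after hydroxyzine (1.98%), 0 in naive, 2 in vehicle and 6 in second set saline mice (5.95%), 3 single times in the second set, 2 and 7 that differ between times in the first and second set, and 3 between drugs of the second set. With the vehicle arrays of both sets there were 2 after bupropion, 2 after clozapine, 1 after haloperidol, 10 after diazepam, 8 after buspirone and 6 after hydroxyzine, where 33.4%, 26.9% and 26.9% of all probes were called, with 40 single times in the second set (10.5% over all probes and times). Against Tween 80 alone haloperidol gave 0. Diazepam gave 1 among bright probes and 1 without the intensity trend, and the first set alone gave 5 interactions. Without the chip that stood apart, an alternative chosen after seeing the data, the second set had 0 single time calls. The cause of these shifts was not tested. The share of all probes called can move with the setting too, as the shares given here show. A count printed without that share is therefore not read as a result about the clock probes. With single replicates left out, counts ran from 2 to 3 after tranylcypromine, 5 to 7 after mianserin, 2 to 3 after risperidone and 0 to 2 after haloperidol (0 without haloperidol replicate 2 or vehicle replicate 2, 1 without vehicle replicate 1), 0 to 1 in naive (0 without replicate 1 or 2) and 1 to 2 in vehicle mice (1 without replicate 3), 17 to 23 for single times in the first set and 0 to 0 in the second, and 0 to 0 elsewhere. With the replicate number as a block in the first set the counts were 3 after tranylcypromine, 7 after mianserin, 3 after risperidone, 2 after haloperidol and 24 single times, and no call was lost; the arrays share only a number. In data simulated for diazepam, with the change present at all 4 times, the F test recovered 63% of probes changed by 0.5 and a single time 9%. A missed call of that size in the second set therefore says little.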
